A study of Mus musculus with 12 samples.

Results

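Oxidative phosphorylation is the process by which mitochondria make most of a cell's ATP, and the genes described here are its nuclear-encoded subunits: those whose symbol begins with Ndufa, Ndufb, Ndufc, Ndufs or Ndufv and a digit, the 4 Sdh subunits, and those beginning with Uqcr, Cox4 to Cox8, or Atp5. This rule took 84 of the 24422 genes in the count tables of an RNA-seq series on mouse adipose stromal cells. By respiratory complex they were 35 genes of complex I, 4 of complex II, 8 of complex III, 20 of complex IV and 15 of complex V, with 2 further genes, Atp5s and Atp5sl, that share the Atp5 name but are not ATP synthase subunits. Ndufa4, named for complex I, was placed in complex IV, where its protein is now assigned, together with its paralogue Ndufa4l2. Cox7a2l, which codes for a supercomplex assembly factor, was also kept under complex IV because the rule takes it by name. Of the 84 genes, 80 had enough counts to be tested, and the others (Cox6a2, Cox7b2, Cox8b and Cox8c, which are muscle or testis isoforms) had 0 to 10 counts in a library.

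Complexes I and II pass electrons from NADH and succinate to ubiquinone, complex III passes them on to cytochrome c, and complex IV hands them to oxygen. Complexes I, III and IV pump protons across the inner mitochondrial membrane as they do so, and complex V, the ATP synthase, uses the returning protons to make ATP. Subunits of complexes I, III, IV and V are coded partly in the nucleus and partly in the mitochondrial genome, whereas complex II is wholly nuclear. In fat tissue, respiratory capacity differs strongly between cell types: brown and beige adipocytes and muscle cells are rich in mitochondria, and the factors NRF1, GABP (an ETS family factor), ERR alpha and the coactivator PGC-1 alpha are known regulators of the subunit genes. The 13 subunits of the mitochondrial genome were not analysed here.

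The 12 libraries formed 4 groups of 3, all from the stromal vascular fraction, the cells of adipose tissue other than mature adipocytes. SD mCherry (replicates 1, 2 and 3) had the genotype p21+/mcherry and a standard diet. HFD mCherry (replicates 15, 17 and 20) shared that genotype but were fed a high fat diet. HFD Tert (replicates 25, 26 and 27) had the genotype p21+/mcherry-Tert on the high fat diet, in which the p21 promoter drives mouse telomerase reverse transcriptase (Tert), and HFD TertCi (replicates 30, 31 and 33) had p21+/mcherry-TertCi on that diet, TertCi being a catalytically inactive Tert protein. Every group therefore had a wild-type p21 allele beside an altered one, and no group had unaltered p21. Because expression of the knock-in follows the p21 promoter, the cells that make Tert or TertCi from it are by design those in which that promoter is active. Reads of the Tert gene were also counted in the mCherry libraries, at 8 to 78 counts. The series text names the high fat diet control by a p21 genotype without mCherry, and the sample labels were followed. Sex, age, fat depot and batch are not given in the labels used, nor whether replicates came from separate animals, so p-values measure the spread between these samples. No mCherry_Tert read was counted in the 6 mCherry libraries, against 33 to 86 counts in each of the 6 knock-in libraries.

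The windows printed next are the 250 bases before the gene start of 5 members, from RefSeq on GRCm38.p6, written 5′ to 3′ on the gene's strand, which is the minus strand for all 5. They are shown as examples of member windows, and the part of such letters in the fold changes was not tested. Capitals mark matches, on either strand, to the NRF1 consensus (GCGC, an A, any base, and GCGC) and to CCGGAAG, known from ETS sites. The matches printed do not overlap one another. Atp5h (chr11:115419920-115420169), Cox6a1 (chr5:115348959-115349208) and Sdhd (chr9:50603850-50604099) were the 3 members with both sets of letters in a window. Cox6b1 (chr7:30626115-30626364), which holds only the ETS letters, and Uqcr10 (chr11:4704345-4704594), which holds neither, were chosen after their values were seen, as members with large differences between groups.
Atp5h: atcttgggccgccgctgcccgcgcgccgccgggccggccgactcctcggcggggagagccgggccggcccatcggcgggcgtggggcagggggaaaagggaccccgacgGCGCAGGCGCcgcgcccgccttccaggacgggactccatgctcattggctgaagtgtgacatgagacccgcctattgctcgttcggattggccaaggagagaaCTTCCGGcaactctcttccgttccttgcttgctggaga
Cox6a1: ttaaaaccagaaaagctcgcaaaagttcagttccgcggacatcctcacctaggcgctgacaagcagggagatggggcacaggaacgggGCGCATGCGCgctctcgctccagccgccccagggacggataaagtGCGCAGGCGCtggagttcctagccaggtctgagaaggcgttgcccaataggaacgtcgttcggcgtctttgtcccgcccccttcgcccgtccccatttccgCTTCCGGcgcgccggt
Sdhd: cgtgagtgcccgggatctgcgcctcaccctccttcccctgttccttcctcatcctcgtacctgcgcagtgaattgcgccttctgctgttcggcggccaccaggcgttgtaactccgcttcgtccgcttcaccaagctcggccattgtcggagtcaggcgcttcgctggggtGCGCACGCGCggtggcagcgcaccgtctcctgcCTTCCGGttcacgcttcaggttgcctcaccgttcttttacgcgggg
Cox6b1: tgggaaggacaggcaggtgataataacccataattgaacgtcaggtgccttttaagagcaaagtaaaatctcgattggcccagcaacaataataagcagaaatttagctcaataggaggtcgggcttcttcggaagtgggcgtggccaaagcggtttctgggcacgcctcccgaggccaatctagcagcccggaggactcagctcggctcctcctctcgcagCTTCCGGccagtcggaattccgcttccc
Uqcr10: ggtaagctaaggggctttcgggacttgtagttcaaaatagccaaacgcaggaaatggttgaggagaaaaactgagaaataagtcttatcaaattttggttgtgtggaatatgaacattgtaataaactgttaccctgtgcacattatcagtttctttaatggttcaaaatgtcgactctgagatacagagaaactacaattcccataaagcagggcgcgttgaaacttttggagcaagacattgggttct

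Promoter windows were found for 66 of the 84 members (71 windows). The NRF1 letters were in 14 of the 71 member windows (19.7%) and in 3.74% of all 32851 windows of this length. The ETS letters were in 12 member windows (16.9%) against 6.91% of all windows. AAGGTCA, known from ERR sites, was in 5 (7.0%) against 4.08%, and CCAAT in 30 (42.3%) against 33.85%. Members with the NRF1 letters had medians of the fitted log2 fold change nearer to 0 than members without them, with no test made. The medians were -0.84 (13 genes) and -0.94 (51 genes) between the diets, 0.86 and 1.04 for HFD Tert, and 0.89 and 1.08 for HFD TertCi. Members with the ETS letters had medians slightly farther from 0 than those without, at -0.94 (12 genes) and -0.90 (52 genes) between the diets, 0.96 and 0.94 for HFD Tert, and 1.03 and 0.95 for HFD TertCi. A match describes the letters of a window and says nothing of whether a factor binds there.

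Library depth was 16430330 to 19486965 counts, and no library was a copy of another (the smallest chi-square per degree of freedom between replicates was 20.5). Levels are given as CPM, the count of a gene relative to a library size scaled by TMM, a factor that evens out composition between libraries. Some libraries held transcripts of other tissues. The summed level of an epididymis and epithelium list (14 genes, 11 tested) ran from 1320 to 54494 CPM for SD mCherry, 209 to 17086 for HFD mCherry, 233 to 21309.7 for HFD Tert and 652 to 33568 for HFD TertCi, and 11 of its genes were at 0 in at least 1 library. SD mCherry replicate 3 had the highest sum, and HFD mCherry replicate 15 had the highest mean of log2 levels of this list and the highest sum of germ cell genes (60.5 CPM). Stromal markers were present in every library, with the adipose progenitor gene Pdgfra at 56.7 to 232 CPM. Because some libraries stand apart, results are also given without SD mCherry replicate 3, HFD mCherry replicate 15, or both. Some are also given without HFD mCherry replicate 20.

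The subunit genes were at their lowest in HFD mCherry. Their counts took 0.616%, 0.639% and 1.14% of all counts in the SD mCherry libraries, 0.513%, 0.373% and 0.301% for HFD mCherry, 0.754%, 0.898% and 0.492% for HFD Tert, and 0.980%, 0.493% and 0.704% for HFD TertCi. The 95% Wilson interval of a share was narrow (0.509% to 0.516% for HFD mCherry replicate 15) and covers counting error only. As shares of counts, all 3 HFD mCherry libraries lay below all SD mCherry libraries, while HFD mCherry replicate 15 lay above HFD Tert replicate 27 and HFD TertCi replicate 31. Scaled by TMM, the summed subunit level was 5369, 5926 and 11375 CPM for SD mCherry, 4861, 4364 and 3395 for HFD mCherry, 7228, 9073 and 5192 for HFD Tert, and 9328, 5316 and 6802 for HFD TertCi. On this scale HFD mCherry did not overlap any other group. HFD mCherry had the lowest group mean for 76 of the 80 tested members, against 31.1% of all genes.

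Within groups the members moved together from library to library. SD mCherry replicate 3 was the highest of its group for 79 of 80 members, HFD mCherry replicate 20 the lowest of its group for 72, HFD Tert replicate 26 the highest for 71 and HFD TertCi replicate 30 the highest for 74. Over all genes, these libraries held those places for 37%, 31.3%, 27.1% and 37.7% of genes. The spread between replicates was therefore largely a spread of the whole set. The pooled SD of the mean log2 level within groups was 0.448 over all members, largest in complex I (0.510) and smallest in complex II (0.338).

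**Figure D1:**
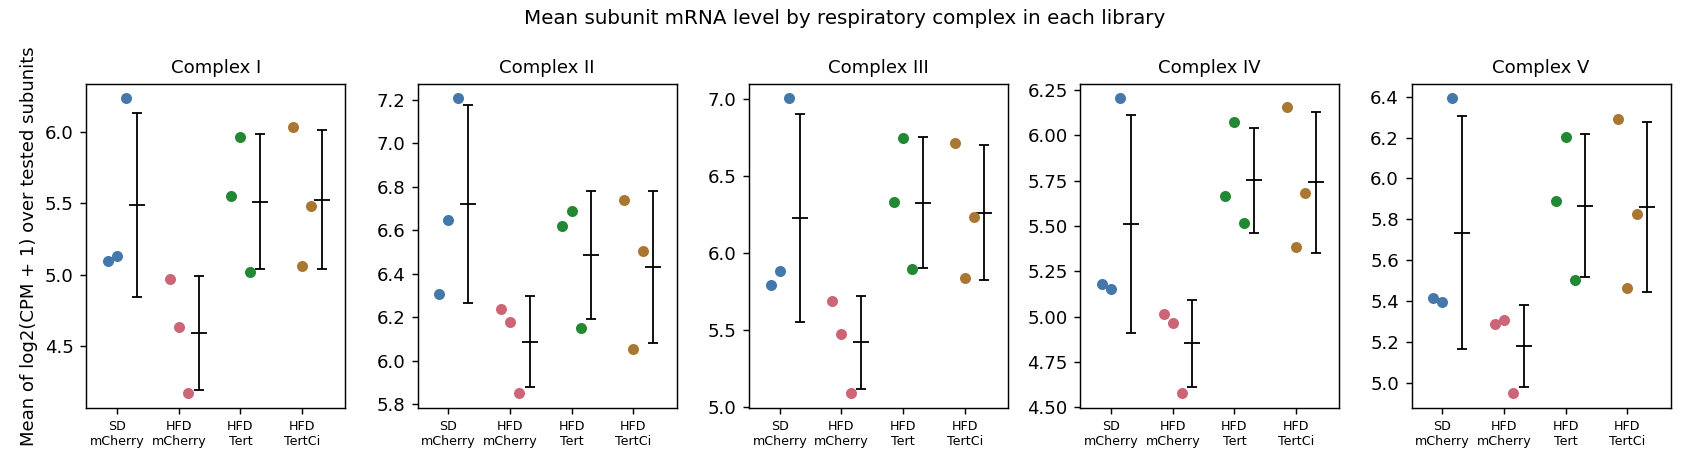
Mean of log2(CPM + 1) over the tested subunits of each complex (y axis) in each of the 12 libraries (points), by group (x axis), with the group mean and SD (n = 3) beside them. In complexes I, III, IV and V the SD mCherry group has 1 library far above the other pair, and HFD mCherry replicate 20 is the lowest library in all 5 panels.

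The first comparison asks what the high fat diet did in mCherry mice. In HFD mCherry the subunits were lower than in SD mCherry: 77 of 80 members had a log2 fold change below 0 (54.1% of all genes) and 3 above (45.9%), and their median was -0.89, against -0.08 over all 16713 genes tested. No member passed edgeR's test at an adjusted p under 0.05, where 0.0479% of all genes did. At an unadjusted p under 0.05, 43 members were lower (10% of all genes were) and 1 was higher (14.1%). The libraries of the groups did not overlap for 38 members lower in HFD mCherry (11.6% of all genes) and 1 higher (13.9%). DESeq2, which called more genes throughout, called 12 members lower (4.46%) and 1 higher (7.92%), and limma-voom called 0 (0% of all genes), with 36 at an unadjusted p under 0.05 in either direction (22.3% of all genes). The medians by complex were -1.04 in I, -0.70 in II, -0.90 in III, -0.94 in IV and -0.76 in V, and the order of the complexes was not tested.

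The size of this difference rested in part on SD mCherry replicate 3, and its p-values also on HFD mCherry replicate 20. Without SD mCherry replicate 3 the median over members was -0.45 and 5 members had an unadjusted p under 0.05 (20.8% of all genes), although 74 of 80 were below 0 (52.2% of all genes). The count of members lower without overlap was again 38 (22.9% of all genes). Leaving out a library can only keep or raise such a count, so the 38 says nothing of how the difference depends on this library. Without HFD mCherry replicate 15 the median was -1.06, edgeR called 3 members, Ndufb3, Cox6b2 and Ndufa4l2 (3.75%, against 12.2% of all genes), and 65 were lower without overlap (29.3% of all genes). Without SD mCherry replicate 3 and HFD mCherry replicate 15 together the median was -0.63 and edgeR called 1 member, Ndufa4l2 (11% of all genes were called). Leaving out HFD mCherry replicate 20 gave a median of -0.72, with 76 of 80 below 0 (53% of all genes). In that fit 6 members had an unadjusted p under 0.05 (12.5% of all genes).

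The next comparisons ask what Tert or TertCi driven from the p21 promoter did on the high fat diet. Both use the HFD mCherry libraries that the diet comparison also uses, so the 3 sets of fold changes share the deviations of those libraries and are given side by side only. In HFD Tert the subunits were higher than in HFD mCherry: 78 of 80 had a log2 fold change above 0 (46.2% of all genes) and 2 below (53.8%), with a median of 0.91 against -0.05 over all genes. In HFD TertCi 77 of 80 were above 0 (47.4% of all genes) and 3 below (52.6%), with a median of 0.92 against -0.04 over all genes. No member passed edgeR's test in either comparison, where 0% and 0.012% of all genes did. At an unadjusted p under 0.05, 39 members were higher in HFD Tert (6.62% of all genes) and 41 for HFD TertCi (5.76%), with 0 lower in either (9.75% and 8.92% of all genes).

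Groups did not overlap for 43 members higher in HFD Tert (9.99% of all genes) and 41 higher in HFD TertCi (9.45%), and for 0 lower (11.1% and 12% of all genes). DESeq2 called 11 members higher in each comparison (1.91% and 1.3% of all genes) and 0 lower (3.17% and 2.79%), and limma-voom called 0 in either (0% and 0.012% of all genes), with 38 and 35 at an unadjusted p under 0.05 (13.5% and 13% of all genes). Complex II had the smallest median, 0.39 for HFD Tert and 0.35 for HFD TertCi. The medians of complexes I, III, IV and V were 1.04, 1.08, 1.01 and 0.75 for HFD Tert and 1.12, 0.94, 0.94 and 0.77 for HFD TertCi. Atp5s and Atp5sl, which are not subunits, had values of -0.72 and -0.65 between the diets, -0.18 and 0.19 for HFD Tert, and -0.07 and 0.35 for HFD TertCi. Leaving out HFD mCherry replicate 15 raised the medians to 1.07 and 1.10 and the members without overlap to 59 in each (18% and 18.9% of all genes), with 0 called by edgeR in either (0.299% and 1.16% of all genes) and 40 and 38 at an unadjusted p under 0.05 (18.8% and 19.2% of all genes). Without that library and SD mCherry replicate 3, edgeR called 2 members (2.5%) in HFD Tert, close to the 2.25% of all genes, and 10 (12.5%) for HFD TertCi, against 3.91%. Leaving out HFD mCherry replicate 20 instead lowered the medians to 0.74 and 0.76. It left 17 and 15 members at an unadjusted p under 0.05 (9.94% and 7.94% of all genes).

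The fourth comparison sets HFD Tert against HFD TertCi. The median log2 fold change was 0.00 over the 80 members, with 40 above 0 (48.2% of all genes) and 40 below (51.7%), against -0.01 over all genes. No member passed edgeR's test (0% of all genes did), none had an unadjusted p under 0.05 (0.766% higher and 0.592% lower over all genes), none was called by DESeq2 (0.018% higher and 0.0239% lower), and no member's groups were free of overlap (2.55% and 2.58%). The 95% interval of the difference included 0 for all 80 members, with median bounds of -0.92 and 0.85 on the log2 scale. Differences of this size in either direction were therefore within the error of this comparison. An F-test over the 4 groups also called no member (0.012% of all genes), and its unadjusted p was under 0.05 for 18 of 80 (22.5%), close to the 20.2% of all genes.

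**Figure D2:**
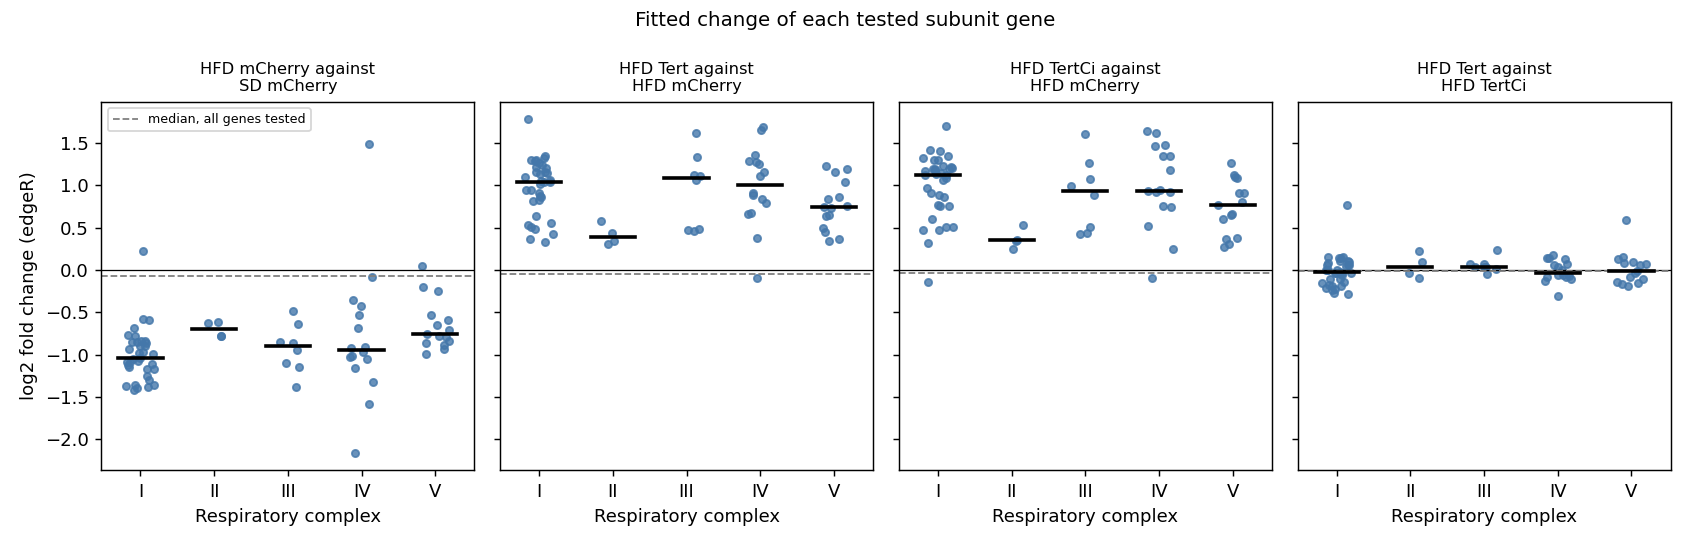
Fitted log2 fold change from edgeR (y axis) of each tested subunit (points) by complex (x axis) in the 4 comparisons, with the median of each complex as a black bar and the median of all genes tested as a dashed line. Most points lie below 0 for the diet and above 0 for both knock-ins against HFD mCherry, with Ndufa4l2 the highest complex IV point in the diet panel (1.49), and they lie around 0 for HFD Tert against HFD TertCi.

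Complex I, the NADH dehydrogenase, has 7 nuclear core subunits that carry out electron transfer, and the other 28 nuclear genes in the tables code for accessory subunits. The medians of core and accessory genes were -0.90 and -1.09 between the diets, 0.81 and 1.11 for HFD Tert, and 0.75 and 1.18 for HFD TertCi. Ndufs1, the largest iron-sulfur subunit, was at 39.2, 40.6 and 50.3 CPM for SD mCherry, 26.6, 29.6 and 29.9 for HFD mCherry, 41.6, 48.5 and 34.4 for HFD Tert and 43.3, 29.9 and 46.5 for HFD TertCi. The HFD mCherry libraries were below all others except HFD TertCi replicate 31, which lay within their range. Its log2 fold change was -0.59 ± 0.21 between the diets and 0.53 ± 0.21 in HFD Tert (adjusted p = 0.141 and 0.265, edgeR). Ndufv1, the flavoprotein that binds NADH, was at 74.3, 82.9 and 116 CPM for SD mCherry, 63.1, 50.1 and 47.5 for HFD mCherry, 84.4, 92 and 52.6 for HFD Tert and 93.4, 54.4 and 80.5 for HFD TertCi. It was lower in every HFD mCherry library than in SD mCherry, with a log2 fold change of -0.76 ± 0.28 (adjusted p = 0.147, edgeR), and overlapped both knock-in groups.

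Among the accessory subunits, Ndufa12 showed the largest difference in both knock-in comparisons. Its level was 11.4, 9.75 and 24.3 CPM for SD mCherry, 8.40, 4.99 and 4.30 for HFD mCherry, 19, 31.1 and 11 for HFD Tert and 28.2, 9.14 and 19.9 for HFD TertCi. All 6 knock-in libraries lay above HFD mCherry, with log2 fold changes of 1.79 ± 0.54 in HFD Tert and 1.69 ± 0.54 in HFD TertCi (adjusted p = 0.207 and 0.231, edgeR; 0.0332 and 0.0493 by DESeq2). Ndufa7 was at 60.7, 67.8 and 202 CPM for SD mCherry, 45.1, 43.1 and 36 for HFD mCherry, 98.4, 159.8 and 52.8 for HFD Tert and 149, 57.4 and 75.7 for HFD TertCi, with -1.41 ± 0.54 between the diets (adjusted p = 0.162, edgeR). Ndufb9 was at 53.2, 51.9 and 142 CPM for SD mCherry, 44.9, 31.7 and 17.7 for HFD mCherry, 81.4, 113 and 37.5 for HFD Tert and 125, 35.1 and 75.6 for HFD TertCi, with -1.39 ± 0.59 (adjusted p = 0.188, edgeR). In both genes SD mCherry replicate 3 was far above its group's other pair, which were closer to HFD mCherry. Both code for accessory subunits, and exons of Ndufb9 overlap those of another annotated gene.

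Ndufb3, an accessory subunit of the membrane arm named here after its values were seen, had the smallest adjusted p of complex I in the diet comparison. Its level was 31, 33.5 and 64.6 CPM for SD mCherry, 25.9, 19.8 and 14.3 for HFD mCherry, 43.4, 54.5 and 35.3 for HFD Tert and 58.1, 48.4 and 41.3 for HFD TertCi. The 3 HFD mCherry libraries were below the other 9. Its log2 fold changes were -1.10 ± 0.33, 1.15 ± 0.33 and 1.30 ± 0.33 in the diet, HFD Tert and HFD TertCi comparisons (adjusted p = 0.0965, 0.196 and 0.186, edgeR; 0.0219, 0.0372 and 0.0157, DESeq2). Ndufb4, by contrast, had few counts (6 to 36 in a library, at 0.386 to 1.87 CPM), as did Atp5g2 (7 to 63) and Atp5l (30 to 75) of complex V. Reads of these genes could be shared with near-identical copies elsewhere in the genome, so their levels are uncertain.

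Complex II, succinate dehydrogenase, also works in the citric acid cycle. Sdha, the flavoprotein, was at 157, 192 and 171 CPM for SD mCherry, 134, 109.8 and 97.5 for HFD mCherry, 161, 149 and 112 for HFD Tert and 163, 103 and 167 for HFD TertCi. Its HFD mCherry libraries were below SD mCherry, with -0.61 ± 0.23 (adjusted p = 0.161, edgeR), and overlapped both knock-in groups. Sdhb, the iron-sulfur subunit, was at 28.7, 27.6 and 66.2 CPM for SD mCherry, 26, 30.9 and 22.5 for HFD mCherry, 35.2, 47.1 and 24.9 for HFD Tert and 52, 24.1 and 38.4 for HFD TertCi, and its groups overlapped in all 4 comparisons. The membrane anchors Sdhc and Sdhd ranged from 76.3 to 231 and from 60.9 to 177 CPM. DESeq2 called Sdhd lower between the diets (adjusted p = 0.0468), the promoter of which is printed above.

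Complex III takes electrons from ubiquinol. Uqcrfs1, the Rieske iron-sulfur protein, was at 127, 140.3 and 314 CPM for SD mCherry, 118, 109 and 95.3 for HFD mCherry, 175, 177 and 98.8 for HFD Tert and 189, 91.6 and 158 for HFD TertCi, and Uqcrc1, a core protein, at 90.4, 108 and 187 CPM for SD mCherry, 84.6, 85.7 and 76.6 for HFD mCherry, 116, 152 and 73.8 for HFD Tert and 139, 76.6 and 137 for HFD TertCi. Both were lower in HFD mCherry than in SD mCherry without overlap (-0.85 ± 0.39 and -0.64 ± 0.34; adjusted p = 0.214 and 0.270, edgeR), and both overlapped the knock-in groups. The small accessory subunit Uqcr10 differed more. Its level was 37.9, 38.3 and 117 CPM for SD mCherry, 28.6, 26.8 and 19 for HFD mCherry, 67, 105 and 55 for HFD Tert and 107, 54.4 and 64.5 for HFD TertCi. All HFD mCherry libraries lay below the other 9, and SD mCherry replicates 1 and 2 lay between them and the knock-in libraries. Its log2 fold changes were 1.61 ± 0.47 in HFD Tert and 1.6 ± 0.47 in HFD TertCi (adjusted p = 0.198 and 0.206, edgeR; 0.0275 and 0.0306, DESeq2). DESeq2 also called Uqcrh, the hinge protein, and Uqcrb higher in both knock-in groups.

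Complex IV, cytochrome c oxidase, has several subunits with a common and a tissue-restricted isoform. Among the common ones, Cox4i1, the regulatory subunit 4 isoform of most tissues, was at 335, 429 and 801 CPM for SD mCherry, 322, 260.3 and 184 for HFD mCherry, 464, 601 and 351 for HFD Tert and 728, 369 and 382 for HFD TertCi, and did not overlap between HFD mCherry and any other group. Cox5a, a subunit on the matrix side, was at 22.4, 28.5 and 54 CPM for SD mCherry, 20.7, 23.9 and 20.6 for HFD mCherry, 38, 63.6 and 55.4 for HFD Tert and 74.2, 48.9 and 42.9 for HFD TertCi. SD mCherry and HFD mCherry overlapped for Cox5a, whereas all 6 knock-in libraries were above HFD mCherry (1.27 ± 0.34 and 1.35 ± 0.34; adjusted p = 0.195 and 0.186, edgeR). Cox6a1 was at 213, 229 and 573 CPM for SD mCherry, 194, 191 and 151 for HFD mCherry, 330.4, 414 and 211 for HFD Tert and 435, 245 and 333 for HFD TertCi. It was lower in HFD mCherry than in each other group without overlap, with -0.92 ± 0.41 between the diets (adjusted p = 0.198, edgeR). Per kilobase of exon it had the highest level of any member, at 418 CPM per kilobase over all libraries, followed by Cox8a at 282 and Cox4i1 at 281. The length used is that of all annotated exons of a gene together. It can exceed the length of the mRNA that is made, so this ranking is approximate.

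Cox6b1, which holds the dimer of complex IV together, was at 55.3, 61 and 142 CPM for SD mCherry, 41.3, 47.4 and 35.7 for HFD mCherry, 89.1, 135 and 94.4 for HFD Tert and 154, 82.7 and 107 for HFD TertCi. Its log2 fold changes were -1.05 ± 0.37, 1.35 ± 0.37 and 1.47 ± 0.37 in the diet, HFD Tert and HFD TertCi comparisons (adjusted p = 0.136, 0.195 and 0.186, edgeR), and DESeq2 called it in all 3. Its paralogue Cox6b2, known as the testis isoform, was also lowest in HFD mCherry. Its level was 7.54, 9.79 and 10.7 CPM for SD mCherry, 4.81, 4.69 and 3.11 for HFD mCherry, 7.35, 10.7 and 10.1 for HFD Tert and 10.7, 14 and 10.3 for HFD TertCi. The HFD mCherry libraries were below the other 9. The values were -1.15 ± 0.29, 1.16 ± 0.29 and 1.47 ± 0.29, with the smallest adjusted p of any member in the diet and HFD TertCi comparisons and, level with Uqcrh, in HFD Tert (0.0757, 0.187 and 0.154, edgeR; 0.00356, 0.00928 and 0.000459, DESeq2). Germ cell genes were highest in HFD mCherry replicate 15, where Cox6b2 was at 4.81 CPM, its highest value in that group. The part of germ cell transcripts in the Cox6b2 values was not tested.

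Cox6c, a small membrane subunit, was at 67.2, 55 and 189 CPM for SD mCherry, 60.2, 35.7 and 29 for HFD mCherry, 129, 193 and 81.8 for HFD Tert and 199, 64.4 and 126 for HFD TertCi. In HFD Tert and HFD TertCi its values were 1.69 ± 0.56 and 1.64 ± 0.56 (adjusted p = 0.224 and 0.248, edgeR), without overlap with HFD mCherry. Cox7a2 was at 39.7, 35.1 and 103 CPM for SD mCherry, 40.8, 30.3 and 20 for HFD mCherry, 61, 104 and 52.9 for HFD Tert and 101, 41.7 and 64 for HFD TertCi. It overlapped between the diets and was higher without overlap in both knock-in groups (1.26 ± 0.49 and 1.18 ± 0.49). Cox7b was at 40.7, 30.9 and 87.5 CPM for SD mCherry, 32.3, 29.9 and 22.8 for HFD mCherry, 48.1, 63.4 and 36.1 for HFD Tert and 75.8, 32.1 and 53.8 for HFD TertCi and Cox8a at 150, 152 and 369 CPM for SD mCherry, 158, 111 and 63.7 for HFD mCherry, 204, 193 and 134 for HFD Tert and 273, 139 and 145 for HFD TertCi, and the HFD mCherry range of Cox8a overlapped that of every other group.

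**Figure D3:**
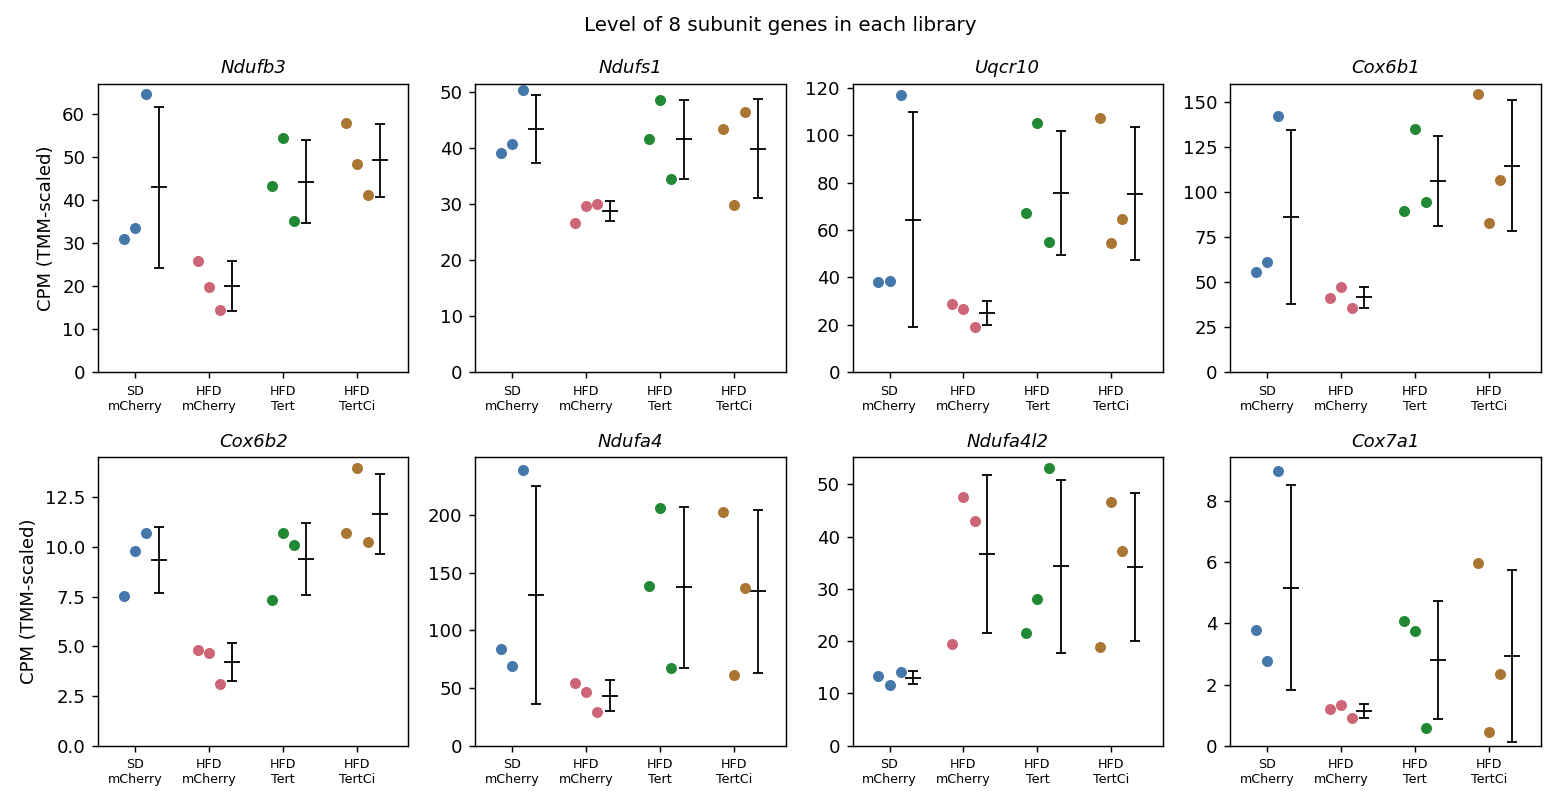
Level in CPM (y axis, from 0) of 8 subunit genes in each library (points) by group (x axis), with the group mean and SD (n = 3). Ndufb3 and Cox6b2 show HFD mCherry below the other 9 libraries, Ndufa4 and Ndufa4l2 differ between the diets in opposite directions, and Cox7a1 has its lowest levels in HFD Tert replicate 27 (0.588 CPM) and HFD TertCi replicate 31 (0.451 CPM).

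Ndufa4 and Ndufa4l2 differed in opposite directions with diet. Ndufa4, a subunit of complex IV in most cells, was at 83.4, 68.9 and 239 CPM for SD mCherry, 54.8, 46.7 and 29 for HFD mCherry, 138, 206 and 67.2 for HFD Tert and 203, 61.7 and 137 for HFD TertCi. It was lower without overlap between the diets and higher without overlap in both knock-in groups (-1.59 ± 0.59, 1.66 ± 0.59 and 1.62 ± 0.59; adjusted p = 0.152, 0.233 and 0.263, edgeR). Ndufa4l2, known to be induced by hypoxia and to be high in pericytes, was at 13.3, 11.7 and 14.1 CPM for SD mCherry, 19.4, 47.5 and 43.1 for HFD mCherry, 21.7, 28.1 and 53.1 for HFD Tert and 18.8, 46.7 and 37.1 for HFD TertCi. All HFD mCherry libraries were above all SD mCherry libraries, at 1.49 ± 0.44 (adjusted p = 0.0973, edgeR; 0.0224, DESeq2). Without HFD mCherry replicate 15 it passed edgeR's test at 1.80 (adjusted p = 0.0264). In the knock-in comparisons it was -0.10 ± 0.43 and -0.10 ± 0.43, with overlap. Its exons overlap those of Shmt2 on the opposite strand, and the strand setting of the counting is not given in the sources used here. Shmt2 itself was lower with diet, at -1.04 ± 0.59, and overlapped between the groups (adjusted p = 0.294, edgeR).

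As a share of the Ndufa4 pair per kilobase of exon, Ndufa4l2 was 13.8% ± 5.96 (SD, n = 3) for SD mCherry, 50.8% ± 17.8 for HFD mCherry, 27.03% ± 19.8 for HFD Tert and 28.3% ± 19.3 for HFD TertCi. A share within a library does not depend on scaling between libraries. The 3 SD mCherry shares (6.91% to 17.6%) did not overlap those of HFD mCherry (30.9% to 65.2%), whereas HFD Tert replicate 27 (49.9%) and HFD TertCi replicate 31 (48.8%) lay within the HFD mCherry range. These are also the knock-in libraries with the lowest sums of the smooth muscle contractile genes and of the skeletal muscle list.

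Cox7a1, the isoform of heart, skeletal muscle and brown fat, was at 3.77, 2.76 and 8.98 CPM for SD mCherry, 1.22, 1.32 and 0.896 for HFD mCherry, 4.09, 3.74 and 0.588 for HFD Tert and 5.97, 0.451 and 2.36 for HFD TertCi. Between the diets it had the lowest log2 fold change of any member, -2.17 ± 0.92 (adjusted p = 0.186, edgeR), and both knock-in groups overlapped HFD mCherry. It made up 13.3% ± 1.07 (SD, n = 3) of the Cox7a1 and Cox7a2 pair per kilobase in SD mCherry, 6.49% ± 1.30 for HFD mCherry, 6.16% ± 4.32 for HFD Tert and 5.81% ± 3.80 for HFD TertCi. The summed level of skeletal muscle genes (13 listed, 10 tested, Myh4 at 0 in all libraries) was 31.5 to 1117 CPM for SD mCherry, 8.96 to 108 for HFD mCherry, 6.70 to 1123 for HFD Tert and 8.31 to 674 for HFD TertCi. Nearly all of the larger sums came from Acta1, Ckm and Tnnc2 (1107 CPM of the highest SD mCherry sum), while the other 10 genes together summed to 4.15 to 12 CPM in every library. The part of these genes in the Cox7a1 values was not tested. Cox4i2, the isoform of lung and vessels, was at 3.26, 3.44 and 7.07 CPM for SD mCherry, 4.14, 5.53 and 3.34 for HFD mCherry, 5.25, 11.1 and 11.7 for HFD Tert and 9.39, 6.44 and 8.92 for HFD TertCi. It made up 1.71% ± 0.162 (SD, n = 3) of the Cox4 pair in SD mCherry and 3.31% ± 0.783 for HFD mCherry, with no overlap between these libraries. The shares were 3.95% ± 2.03 for HFD Tert and 3.39% ± 0.960 for HFD TertCi. The level of Cox4i2 overlapped between the diets, while that of Cox4i1 was lower in HFD mCherry without overlap.

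Complex V, the ATP synthase, had the median nearest 0 after complex II in all 3 comparisons that use HFD mCherry (-0.76, 0.75 and 0.77). Atp5a1, the alpha subunit of the F1 head, was at 523, 626 and 725 CPM for SD mCherry, 420, 409 and 369 for HFD mCherry, 591, 606 and 348 for HFD Tert and 546, 407 and 528 for HFD TertCi. Atp5b, the catalytic beta subunit, was at 527, 468 and 850.1 CPM for SD mCherry, 395, 448 and 384 for HFD mCherry, 595, 650.4 and 316 for HFD Tert and 641, 349 and 608 for HFD TertCi. Both were lower in HFD mCherry than in SD mCherry without overlap (-0.65 ± 0.25 and -0.59 ± 0.35; adjusted p = 0.166 and 0.307, edgeR), and both overlapped the knock-in groups. The medians of the F1 head, stalk and membrane genes were 0.45, 0.70 and 0.95 for HFD Tert and 0.60, 0.78 and 1.01 for HFD TertCi, from 5, 4 and 6 genes. Atp5g3, a gene for the c subunit of the membrane ring, was called by DESeq2 in all 3 comparisons with HFD mCherry (-0.87 ± 0.30, 1.04 ± 0.30 and 1.12 ± 0.30; adjusted p = 0.132, 0.198 and 0.197, edgeR). It is named here after its values were seen.

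Other genes of the pathway were read from lists chosen with earlier results of these data known. None of the 10 tested electron carriers, 44 assembly factors, 16 citric acid cycle genes or 14 mitochondrial regulators was called by edgeR in any comparison. The median of the carriers was -0.83 between the diets, 0.32 for HFD Tert and 0.34 for HFD TertCi, that of the assembly factors -0.68, 0.31 and 0.40, and that of the citric acid cycle genes -0.42, 0.34 and 0.28. Between the diets, 6 of 10 carriers, 12 of 44 assembly factors and 9 of 16 citric acid cycle genes were lower without overlap, where 11.6% of all genes were. In HFD Tert 3 carriers, 6 assembly factors and 5 citric acid cycle genes were higher without overlap (9.99% of all genes). In HFD TertCi the counts were 4, 6 and 3 (9.45% of all genes). In the same order, 1 and 2 assembly factors were lower without overlap (11.1% and 12% of all genes). Coq7, an enzyme of ubiquinone synthesis, had the largest values among the carriers, at -1.43 ± 0.41 between the diets, 1.51 ± 0.41 for HFD Tert and 1.51 ± 0.41 for HFD TertCi (adjusted p = 0.0905, 0.195 and 0.197, edgeR).

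The regulators had medians of -0.09, -0.02 and 0.04, with members on both sides of 0. Between the diets they ran from Ppara, a nuclear receptor of fatty acid oxidation genes, at -2.74 ± 1.05 (adjusted p = 0.162, edgeR) and lower without overlap, to Perm1, a muscle regulator of PGC-1 and ERR targets, at 1.42 ± 0.6 (adjusted p = 0.187, edgeR) with overlap. At an unadjusted p under 0.05, 2 regulators were higher (14.1% of all genes) and 3 lower (10%). Ppargc1a, which codes for PGC-1 alpha, was at 27.5, 35.2 and 1.97 CPM for SD mCherry, 5.69, 1.92 and 3.58 for HFD mCherry, 4.96, 5.07 and 0.588 for HFD Tert, and 1.68, 1.42 and 3.41 for HFD TertCi. SD mCherry replicate 3, the library with the highest subunit sum, had the lowest Ppargc1a level of its group. Esrra, which codes for ERR alpha, was -0.63 ± 0.28 between the diets (adjusted p = 0.199, edgeR), without overlap. Nrf1 and Tfam, a factor of mitochondrial DNA transcription, were 0.25 ± 0.24 and -0.23 ± 0.21 between the diets, with overlap (adjusted p = 0.534 and 0.518, edgeR). Ucp1, the brown fat uncoupling protein, was at 0.0970 to 1.48 CPM, where 3 counts in a library are 0.154 to 0.183 CPM, and Zic1, another gene of the thermogenic fat list, was at 0 in all libraries. The 7 tested genes of this list had medians of -1.64, 0.06 and 0.49 in the diet, HFD Tert and HFD TertCi comparisons, with 0 called by edgeR. They ran from Slc27a2 at -3.09 to Dio2 at 0.97 between the diets. In HFD Tert the range was from Slc27a2 at -1.21 to Kcnk3 at 2.23, and in HFD TertCi from Ppargc1a at -0.78 to Kcnk3 at 1.68.

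In bulk tissue RNA, fewer cells of a type and less RNA per cell cannot be told apart, and the sums of several cell type lists differed between groups beside those of the subunits. The pericyte and smooth muscle list (10 of 10 tested) summed to 2624 to 20525 CPM for SD mCherry, 1573 to 2908 for HFD mCherry, 2727 to 19908 for HFD Tert and 3922 to 12400.5 for HFD TertCi, and none of the 10 was at 0 in any library. Most of this sum came from 4 contractile genes of smooth muscle (Acta2, Tagln, Myh11 and Cnn1, grouped after their values were seen), at 2345 to 20214 CPM for SD mCherry, 894 to 2378 for HFD mCherry, 2213 to 19423 for HFD Tert and 3454 to 12087 for HFD TertCi. The other 6 genes, which mark pericytes, summed to 279 to 349, 282 to 679, 445 to 514 and 314 to 469 CPM in the same order. Among these 6, Notch3, Abcc9 and Higd1b were higher in HFD mCherry than in SD mCherry without overlap, opposite to most subunits, and Cspg4 was lower without overlap. Between the diets the whole list thus had 3 genes higher and 3 lower without overlap (13.9% and 11.6% of all genes). The macrophage list (14 of 14 tested) differed the other way, at 1235 to 1402 CPM for SD mCherry, 2774 to 7074 for HFD mCherry, 1012 to 2905 for HFD Tert and 1326 to 2042 for HFD TertCi. The adipose progenitor list (14 of 14 tested) did so too, at 3919 to 5751, 8820 to 25388, 6609 to 14590.4 and 5708 to 12554 CPM in the same order. Of the macrophage genes, 12 of 14 were higher without overlap between the diets (13.9% of all genes), and 7 and 12 were lower in HFD Tert and HFD TertCi (11.1% and 12%). Of the progenitor genes, 8 of 14 were higher without overlap between the diets (13.9% of all genes). In HFD Tert 2 of 14 were lower without overlap, close to the 11.1% of all genes, and in HFD TertCi 4 of 14 (12% of all genes). None of the macrophage or progenitor genes was at 0 in any library. By medians over genes, the mesothelial list (8 of 8 tested) stood at -1.68, 1.80 and 1.15 in the diet, HFD Tert and HFD TertCi comparisons. The adipocyte list (14 of 14 tested) stood at -0.89, 0.83 and 0.75, and the endothelial list (10 of 10 tested) at 0.89, 0.51 and 0.57. The adipocyte sum went the other way from its median between the diets, at 856 to 1097 CPM for SD mCherry and 1958 to 4611 for HFD mCherry. It was 1442 to 7512 CPM for HFD Tert and 2527 to 4345 for HFD TertCi. Between the diets its genes ran from Cfd at -5.18 to Lpl at 3.77. Of the adipocyte genes, 3 were higher and 3 lower without overlap between the diets (13.9% and 11.6% of all genes). The part of these lists in the subunit differences was not tested. With the epididymis score as a covariate, the median over subunits was -0.70, 0.91 and 0.81 in the diet, HFD Tert and HFD TertCi comparisons. With it edgeR called 2 members (2.5%) in the diet comparison, fewer than the 8.44% of all genes, 7 (8.75%) in HFD Tert, against 4.51%, and 4 (5%) in HFD TertCi, against 2.93%.

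**Figure D4:**
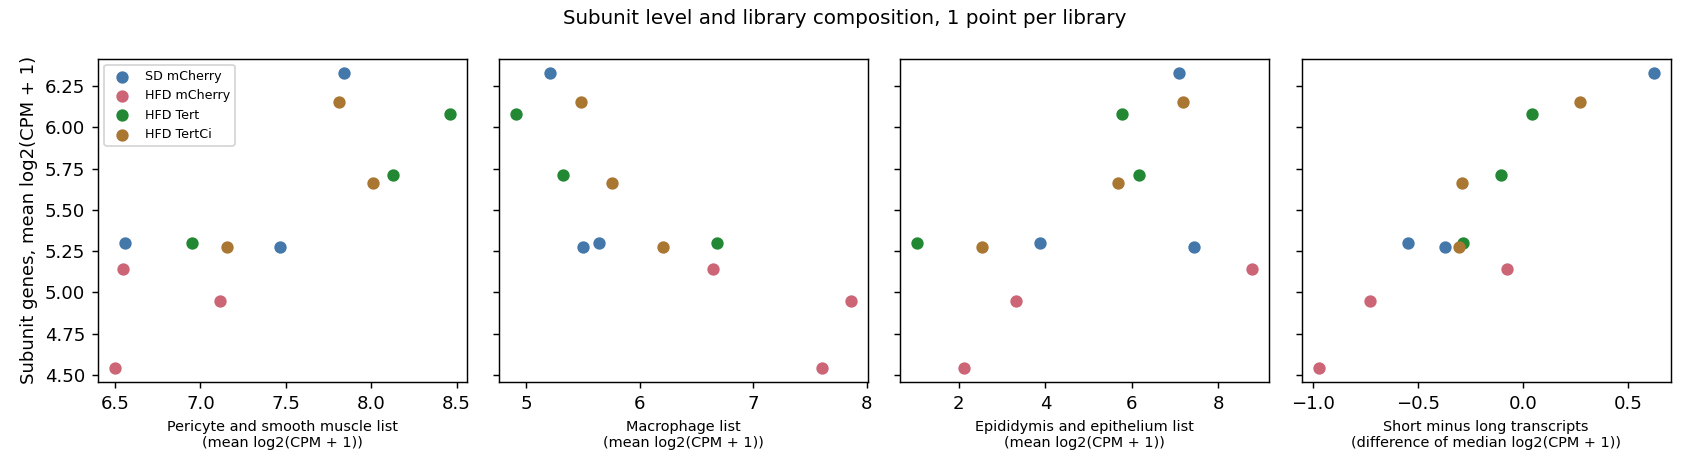
Mean log2(CPM + 1) of the tested subunit genes (y axis) against 4 measures of library composition (x axes), 1 point per library coloured by group. The library with the highest subunit level, SD mCherry replicate 3, also has the highest difference between short and long transcripts (0.621), and HFD mCherry replicate 20 has the lowest of both.

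Many subunit mRNAs are short, and short and long transcripts differed between libraries. The median log2(CPM + 1) of 188 other genes under 1000 bases minus that of 6617 over 3000 bases, all at a mean of 15 CPM or more, was -0.37, -0.55 and 0.62 for SD mCherry, -0.08, -0.73 and -0.98 for HFD mCherry, -0.11, 0.04 and -0.29 for HFD Tert, and 0.27, -0.31 and -0.29 for HFD TertCi. SD mCherry replicate 3 and HFD TertCi replicate 30, the libraries with the highest subunit levels, had the highest values, and HFD mCherry replicate 20 had the lowest of both measures. With this score as a covariate, chosen after seeing the data, the median over subunits was -0.32, 0.44 and 0.37 in the diet, HFD Tert and HFD TertCi comparisons. In the diet comparison 6 of 80 members then had an unadjusted p under 0.05, where 16.9% of all genes did. The counts for HFD Tert and HFD TertCi were 21 and 23 of 80 (14.2% and 11.9% of all genes).

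In every class of exonic length the subunit median lay away from that of other genes in the same direction. The length is that of all annotated exons together and can exceed that of the mRNA made. The classes therefore cannot show how subunits with long mRNAs differed. The other genes were at a mean of 15 CPM or more, a limit not set for the members. Members under 1000 bases (19 genes) had medians of -1.01, 1.06 and 1.10 in the diet, HFD Tert and HFD TertCi comparisons, against -0.22, 0.35 and 0.25 for the 188 other genes. Members over 4000 bases (10 genes) had -0.62, 0.63 and 0.64, against 0.13, -0.10 and -0.10 for 5298 other genes. In both sets the median of the longest class was nearer to 0 than that of the shortest, or had passed it.

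**Figure D5:**
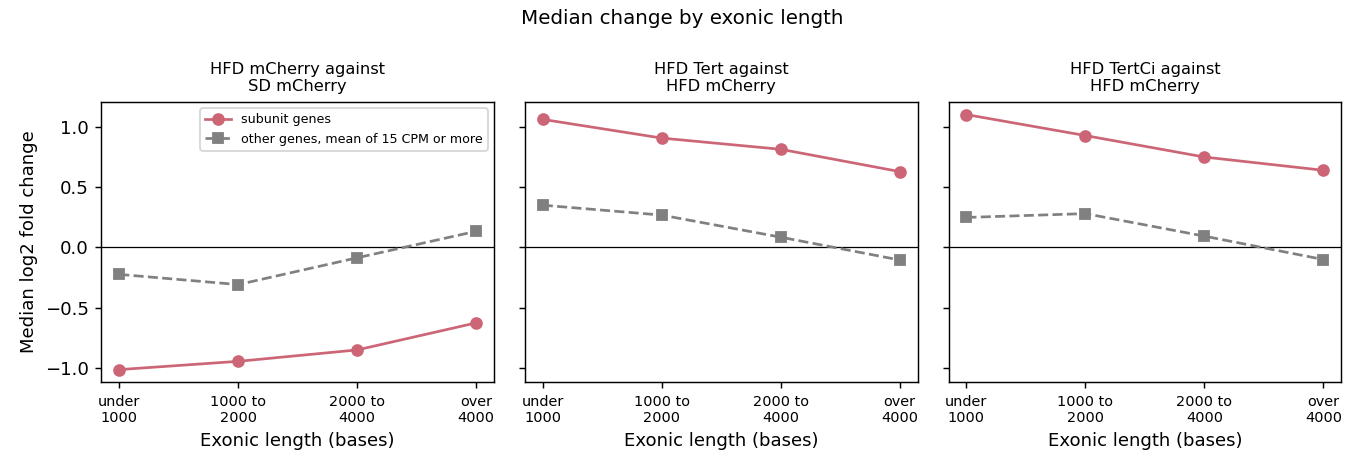
Median log2 fold change (y axis) by exonic length (x axis) of the subunit genes and of other genes at a mean of 15 CPM or more, in the 3 comparisons with HFD mCherry. In each length class the subunit median is farther from 0 than that of the other genes, and in both sets it moves in one direction from short to long for HFD Tert, while for the diet the other genes run from -0.22 under 1000 bases to 0.13 over 4000.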

How the data were processed

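The authors deposited a table of raw read counts per gene for each of the 12 libraries, per the file headers. Per the labels' protocols, poly-T beads selected the mRNA and random hexamers primed the cDNA. The submitters' processing notes name Subread, SAMtools, featureCounts 1.6.4 and mm10, while the annotation and the strand setting are not given in the sources used here. The members and gene lists were chosen with earlier results of these data known.

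Genes were kept by filterByExpr (16713 genes), scaled by TMM and fitted in edgeR 4.0.16 (R 4.3.3) as 4 groups over all 12 libraries, with a robust quasi-likelihood test. Tests were 2-sided, with Benjamini-Hochberg adjustment over all genes tested and a threshold of 0.05. SE is that of the fitted log2 fold change. Levels on a log scale are log2(CPM + 1). DESeq2 1.42.0, limma-voom 3.58.1, other scalings and filters, covariates and libraries left out were the alternatives. Members given by library were those with the 4 highest and 4 lowest log2 fold changes per comparison without overlap at a mean of at least 1 CPM, isoform pairs and catalytic subunits fixed by name, and others marked as chosen after their values were seen. Exon lengths came from GENCODE M21. Exons of 29 members overlap those of another annotated gene, and without a strand setting such reads cannot be told apart. The scripts were tested on simulated data.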

Additional observations from a re-analysis of the deposited data

How the results depend on the processing

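No paired analysis was possible because replicate numbers differ between all 4 groups. The direction of each median held under every alternative run in the diet, HFD Tert and HFD TertCi comparisons. The number of members called by edgeR was 0 in each comparison and depended on the tool and the libraries. It became 13, 11 and 11 with DESeq2 in the diet, HFD Tert and HFD TertCi comparisons (all genes: 2069, 849 and 684), 2, 7 and 4 with the epididymis score as covariate (all genes: 1410, 754 and 490), and 1, 2 and 10 without SD mCherry replicate 3 and HFD mCherry replicate 15 together, a choice made after seeing the data (all genes: 1874, 382 and 665). In the F-test over groups it became 2 with the epididymis score and 8 without both libraries. For the F-test the share of all genes called was counted in the main fit only. Its counts of members in other fits therefore have no background and cannot be read as an excess. Leaving out each replicate gave 0 to 3 members in the diet comparison (3 without HFD mCherry replicate 15) and 0 to 3 in the F-test (3 without SD mCherry replicate 3), and medians of -1.07 to -0.45 for the diet, 0.73 to 1.08 for HFD Tert, 0.63 to 1.10 for HFD TertCi and -0.28 to 0.24 for HFD Tert against HFD TertCi. With the transcript length score as covariate, also added later, the medians were -0.32, 0.44 and 0.37. Scaling by library size alone moved the median of all genes from -0.08 to -0.27 for the diet and from -0.04 to 0.06 for HFD TertCi, and that of the members to -1.05 and 1.04. The causes were not tested. The 4 members that were not tested had 0 to 10 counts in a library. For the others, each group had 3 libraries and edgeR's common BCV (coefficient of variation between replicates) was 0.536.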
